A study of Homo sapiens with 13 samples.

Results

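The transcripts of the mitochondrial genome were followed in human embryonic stem cells exposed to BMP4. They were chosen by name, as every gene whose symbol starts with MT-, which gave 37 of the 61546 features in each of the count tables: 13 mRNAs, 2 rRNAs and 22 tRNAs. The cells were RUES2, an established human embryonic stem cell line, with a GFP::SMAD4 fusion in all 13 libraries, so that every value belongs to 1 engineered line. In the time series, 7 libraries of total RNA depleted of ribosomal RNA were made from cells given 100 ng/mL BMP4, a signaling ligand, and 5 µM IWP2, which blocks Wnt secretion: 2 at 0 h and 1 each at 4, 12, 20, 28 and 42 h. The labels name this treatment for the 0 h libraries as well, which were taken here as cells at its start. In the dose response, 6 libraries of polyA-selected RNA were made at 5 h: 5 with BMP4 and IWP2 together with 0, 10, 30, 100 or 300 nM LDN-193189 (LDN), which inhibits BMP receptors, and 1 untreated library in mTeSR growth medium. The labels add RI to every treatment with BMP4, and the treatment protocol names a ROCK inhibitor. No condition other than 0 h had a replicate, and nothing states that the 0 h libraries came from separate cultures.

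The mitochondrial genome is a small circle of DNA transcribed from both strands into long RNAs that cover nearly its whole length. The tRNAs lie between most of the other genes and are cut out by dedicated enzymes, which frees the mRNAs and rRNAs. The mRNAs encode subunits of the respiratory chain and of ATP synthase, and most of them receive a short polyA tail in the organelle. The rRNAs build the mitochondrial ribosome. All proteins that transcribe and process these RNAs are encoded in the nucleus.

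Some of the genes share bases, which bears on how reads can be assigned to them, and some end without a full stop codon. The sequences are those of GRCh38 (chromosome M, 16569 bases), the build the submitters name, with gene positions from GENCODE release 44. MT-ATP8 and MT-ATP6, subunits of ATP synthase, overlap by 46 bases, MT-ND4L and MT-ND4, subunits of complex I, overlap by 7, and MT-ATP6 and MT-CO3 by 1. They are shown because the deposited counts divide reads that fall there, with the shared bases in capitals and all on the plus strand.
MT-ATP8/MT-ATP6 (chrM:8515-8584): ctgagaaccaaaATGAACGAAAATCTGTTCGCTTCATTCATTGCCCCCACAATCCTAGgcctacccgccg
MT-ND4L/MT-ND4 (chrM:10748-10778): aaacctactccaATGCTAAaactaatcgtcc
MT-ATP6/MT-CO3 (chrM:9195-9219): cgacaacacataAtgacccaccaat

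For 6 of the 13 mRNAs the gene ends within a stop codon that only the polyA tail completes. The last 15 bases of 2 mRNAs on which results turn, MT-CO3 and MT-ND3, show this beside MT-ATP6. The annotated MT-ATP6 gene ends in a whole stop codon. The last base of that codon is also the first base of the MT-CO3 start codon, and which mRNA keeps it was not tested. Capitals mark the stop codon or the part of it that the gene holds.
MT-CO3: attgatgagggtctT
MT-ND3: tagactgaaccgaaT
MT-ATP6: cacgacaacacaTAA

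Between MT-CO3, MT-ND3 and MT-ND4L lie the tRNA genes MT-TG and MT-TR, and MT-TS2 is the shortest tRNA gene of the set at 59 bases. They are shown whole, in lower case with no part marked, since the tRNA result below rests on their size. All 3 are on the plus strand.
MT-TG (chrM:9991-10058): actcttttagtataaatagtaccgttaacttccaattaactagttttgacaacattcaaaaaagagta
MT-TR (chrM:10405-10469): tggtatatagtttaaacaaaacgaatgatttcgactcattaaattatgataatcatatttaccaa
MT-TS2 (chrM:12207-12265): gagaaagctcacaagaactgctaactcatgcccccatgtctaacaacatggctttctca

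Library totals ranged from 37957385 to 71333471 counts in the time series and from 15600931 to 33989998 in the dose response. A floor of 3 counts came to 0.042 to 0.079 CPM (counts scaled to a common library total) in the former and 0.088 to 0.192 CPM in the latter. Markers followed the labels: the summed CPM of 8 pluripotency genes was 7987 and 8420 at 0 h and 3707 at 42 h, that of 8 amnion-like genes was 22.4 and 27.2 at 0 h and 5588 at 42 h, and that of 6 primitive streak and mesendoderm genes stayed between 1.57 and 5.74 in the time series. Both 0 h libraries carried the same label but differed in the noncoding RNAs RN7SL1 and RN7SL2, parts of the signal recognition particle, which took 0.905% of the counts in replicate 1 and 3.01% in replicate 2. The 1.5-fold counts and the mRNA totals set against the 0 h mean are therefore given against replicate 2 alone as well.

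The share of all counts that fell on the mitochondrial genome was lower at later times. It was 7.60% in replicate 1 and 4.29% in replicate 2 of 0 h, and the libraries of 4, 12, 20, 28 and 42 h had 4.23%, 3.65%, 2.73%, 3.11% and 2.01%. Every library after 0 h lay below both 0 h libraries, but 4 h lay close to replicate 2, and 28 h lay above 20 h. In bulk libraries, fewer mitochondrial transcripts in each cell and a smaller share of cells rich in them cannot be told apart. The share of the listed structural noncoding RNAs moved over the same libraries, from 1.19 and 3.61% at 0 h to 1.74, 3.02, 2.36, 3.37 and 4.03% later. Of its 10 features tested 5 rose with hours and none fell (edgeR, Benjamini-Hochberg adjustment), where 19.2% of all genes rose and 17.5% fell. The 5 include RMRP as separate features of the same name. RN7SL1 and RN7SL2, which held most of this share, did not pass (edgeR adjusted p = 0.209 and 0.156). With the listed structural RNAs and the mitochondrial rRNAs taken out of the total, the member share was 7.70 and 4.45% at 0 h and 2.10% at 42 h.

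Across the 7 libraries the share ran against hours with Spearman's rho of −0.955 (exact permutation p = 0.00397, two-sided, Benjamini-Hochberg adjusted p = 0.00992 over 5 measures) and Pearson's r of −0.767 (exact permutation p = 0.0381, adjusted p = 0.0952). Without 42 h and 28 h, the libraries farthest from the median time, r was −0.730. Leaving out 0 h replicate 1 gave r = −0.953 (exact permutation test, adjusted p = 0.0104), so the linear relation passed the threshold only without that library. Nearly all of the share was mRNA, and the mRNA share alone gave the same rho of −0.955 and r of −0.767 (exact permutation p = 0.0377, adjusted p = 0.0952).

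All 15 members with counts were at least 1.5-fold lower at 42 h than the mean of 0 h, against 32.3% of all genes, and none was higher, against 18.2%, though the rRNAs were compared at few counts. Against replicate 2 alone 13 members were lower, the mRNAs, and neither rRNA was, against 30.3% of all genes. The median log2 ratio to the 0 h mean was −1.72 over the members and −0.23 over all genes. To replicate 2 alone it was −1.18 and −0.22, respectively. The mRNA total was 2.95-fold lower, a log2 ratio of −1.56 against an SD of 0.58 on the log2 scale between the 0 h libraries (n = 2). Against replicate 1 alone the log2 ratio was −1.92 and against replicate 2 alone −1.09. The steps in between were a log2 ratio of −0.49 from 0 h to 4 h, −0.21 from 4 h to 12 h, −0.42 from 12 h to 20 h, 0.19 from 20 h to 28 h and −0.63 from 28 h to 42 h. The step of the first 4 h was thus smaller than the spread between the 0 h libraries, and it was −0.019 against replicate 2 alone and −0.84 against replicate 1 alone. Counting error was small beside these differences: the 95% Wilson interval of the member share was 7.59 to 7.61% in 0 h replicate 1 and 2.01 to 2.02% at 42 h, and it covers counting error only.

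**Figure D1:**
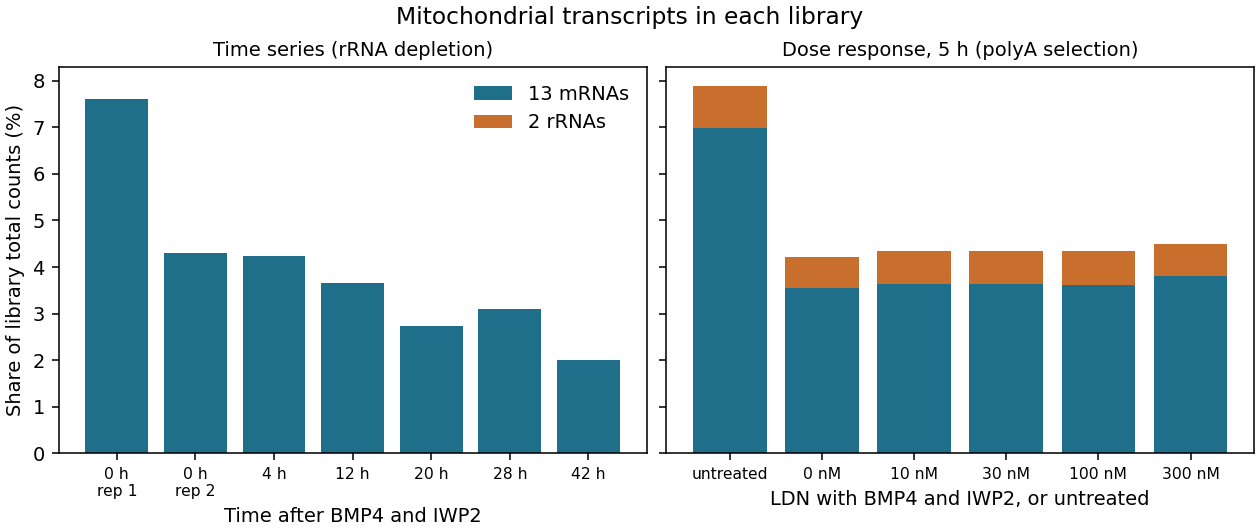
Share of the library total taken by the 13 mitochondrial mRNAs (blue) and the 2 mitochondrial rRNAs (orange), in percent, for each library of the time series (left, rRNA depletion) and of the dose response at 5 h (right, polyA selection). Each bar is 1 library, so no error bars are drawn. In the time series the bars run from 7.60% to 2.01% with no visible rRNA, and in the dose response the untreated library stands at 7.89% against 4.22 to 4.49% for the 5 libraries with BMP4.

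The 0 h libraries of the same label were themselves apart. All 15 members with counts were at least 1.5-fold higher in replicate 1 than in replicate 2, against 4.26% of all 15976 genes, none was lower, against 6.45%, and the mRNA total was 1.77-fold higher. The median log2 ratio was 0.83 over the members and 0.02 over all genes. Replicate 1 also had the lower share of the listed structural noncoding RNAs (1.19% against 3.61%) and the lower total count, and the part of either in the difference was not tested.

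Gene by gene, 10 of the 13 mRNAs fell with hours and no member rose (edgeR quasi-likelihood test, Benjamini-Hochberg adjusted over 15976 genes, threshold 0.05). Over all genes 17.5% fell and 19.2% rose in the same fit. The median slope was −0.032 log2 per hour over the 15 members tested and −0.00011 over all genes. Without 42 h no member passed the threshold, although 11 had an unadjusted p under 0.05, which was not counted over all genes. The median slope of the members in that fit was −0.035. That fit also called fewer genes in all, 1387 lower against 2793. Without 0 h replicate 1, 8 of the 13 members tested fell, beside 1990 of 15951 genes, and the median slope of the members was −0.021.

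Complex I, which takes electrons from NADH, has 7 subunits encoded in the mitochondrial genome, and 6 of them fell. MT-ND4 stood at 9473 and 5152 CPM at 0 h, and at 5663, 4618, 3272, 3825 and 2069 CPM in the libraries of 4, 12, 20, 28 and 42 h. The 4 h value lay between the 0 h libraries and all later ones lay below both. The fitted line changed on the log2 scale over 42 h by −1.45 for MT-ND4 (edgeR adjusted p = 0.0109), by −1.35 for MT-ND1 (edgeR adjusted p = 0.0127) and by −1.18 for MT-ND6, the mRNA read from the other strand (edgeR adjusted p = 0.0152). The other 3 that fell were MT-ND2 (−1.28), MT-ND4L (−1.65) and MT-ND5 (−1.47), with edgeR adjusted p-values from 0.0189 to 0.0205.

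Complex IV, the cytochrome c oxidase that passes electrons to oxygen, has 3 mitochondrial subunits and all of them fell. MT-CO1, the most abundant mRNA by counts, was at 17193 and 8940 CPM at 0 h, and at 9244, 8143, 6453, 6614 and 4514 CPM in the same later libraries. Values from 12 h on lay below both 0 h libraries. Over 42 h the line changed on the log2 scale by −1.21 for MT-CO1 (edgeR adjusted p = 0.0246), by −1.40 for MT-CO2 (edgeR adjusted p = 0.0267) and by −1.34 for MT-CO3 (edgeR adjusted p = 0.0486).

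Of the ATP synthase subunits MT-ATP8 fell narrowly, with a line of −0.97 over 42 h (edgeR adjusted p = 0.0485), and MT-ATP6 did not pass (−0.73, edgeR adjusted p = 0.0543). Nor did MT-CYB, the only mitochondrial subunit of complex III (−0.96, edgeR adjusted p = 0.0572), or the complex I subunit MT-ND3 (−1.97, edgeR adjusted p = 0.0514). When library totals or the totals of nuclear genes replaced the TMM factors, all 13 mRNAs passed. That choice also moved the median of all genes at 42 h against 0 h from −0.01 to −0.23 on the log2 scale. Among all genes the split was then 2121 that rose against 4069 that fell with library totals, in place of 3072 and 2793.

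**Figure D2:**
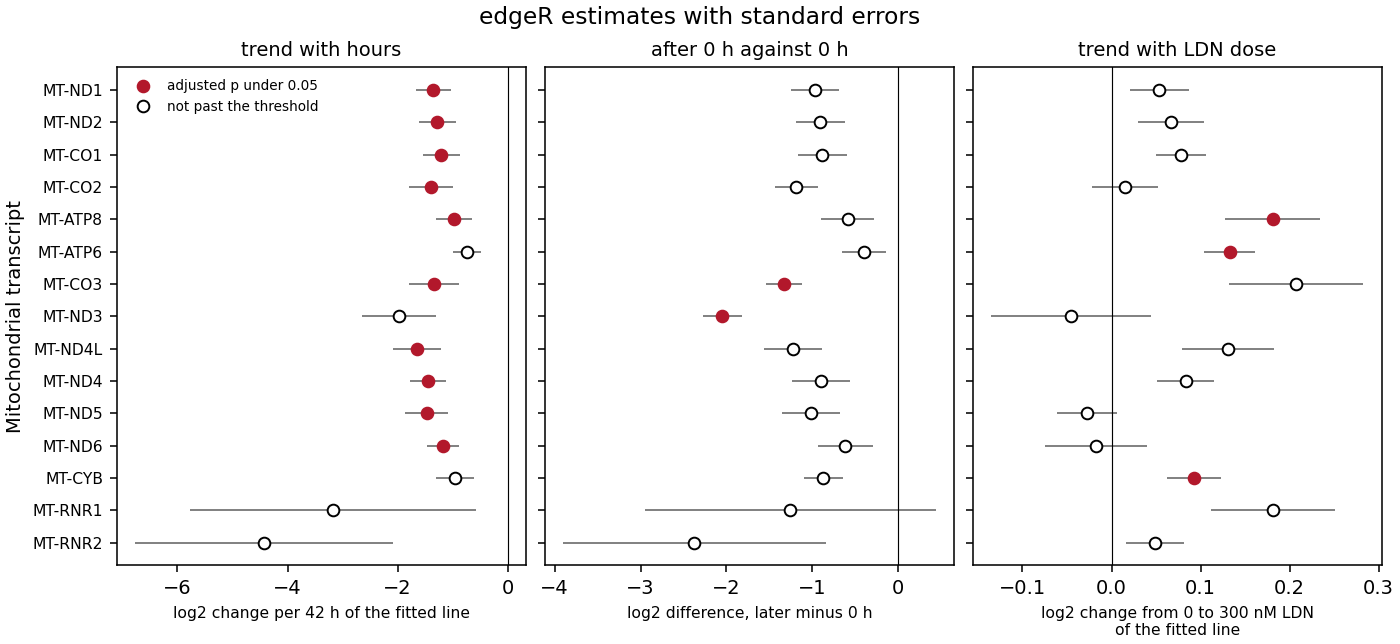
edgeR estimates (points) with standard errors (lines) on the log2 scale for the 15 members with enough counts: the change of the fitted line over 42 h, the difference of the 5 later libraries from 0 h, and the change of the fitted line from 0 to 300 nM LDN. Filled red points have an adjusted p under 0.05: 10 members in the first panel, MT-CO3 and MT-ND3 in the second and MT-ATP6, MT-ATP8 and MT-CYB in the third, where the axis spans under 0.5 log2 units.

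A shift from 0 h to all later times was found for 2 members, MT-ND3 and MT-CO3, which are neighbours on the genome, parted only by MT-TG. MT-ND3 stood at 577 and 327 CPM at 0 h, then at 130.0, 116, 84.3, 112 and 90.3 CPM in the libraries of 4, 12, 20, 28 and 42 h. MT-CO3 stood at 6921 and 4545 CPM at 0 h, then at 2799, 2510, 1756, 2311 and 1800.1 in the same order. In both, all later libraries lay below both 0 h libraries, and most of the difference was already there at 4 h. The difference was −2.05 ± 0.23 for MT-ND3 (log2, SE, edgeR adjusted p = 0.0164) and −1.33 ± 0.21 for MT-CO3 (log2, SE, edgeR adjusted p = 0.0398), in a fit in which 0.138% of all genes fell and 0.826% rose.

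Both calls were lost when either 0 h library or any of 12, 20 and 28 h was left out, and MT-CO3 also when library totals were used. The differences without 0 h replicate 2, 12, 20 or 28 h were −2.41, −2.06, −1.97 and −2.07 for MT-ND3 and −1.61, −1.35, −1.25 and −1.34 for MT-CO3 on the log2 scale, so that they moved little where later libraries were left out. With 1 library at 0 h the fit called no gene at all, whichever of them was left out. Without 0 h replicate 1 the difference of MT-ND3 was −1.58 and that of MT-CO3 −0.99 on the log2 scale. Counted by values alone, 7 of the 15 members (MT-ND1, MT-ND2, MT-ND3, MT-ND4L, MT-CO2, MT-CO3 and MT-CYB) had CPM below both 0 h libraries in every later library, against 13% of all genes, and none lay above, against 14.5%. At 4 h alone 6 members were at least 1.5-fold lower than the 0 h mean, against 2.3% of all genes, but this count rests on 0 h replicate 1. Against replicate 1 alone it was 12, and against replicate 2 alone it was 2, MT-ND3 (log2 ratio −1.33) and MT-CO3 (−0.70), with both rRNAs higher at a few counts, where 4.04% of all genes were lower and 14.9% higher.

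To set aside how much of a library was mitochondrial, each mRNA was also expressed as a share of the mitochondrial mRNA counts. On this scale the 0 h libraries, 1.77-fold apart in total, were close: MT-ND3 took 0.759% and 0.762%, MT-CO2 8.588% and 8.586% and MT-ATP6 10.6% and 11.0%. The later libraries lay outside the range of the 0 h libraries for 7 of the 13 mRNAs, 4 of them below and 3 above. By CPM, a different measure, 13% of all genes lay below in every later library and 14.5% above. Shares add to 100%, so they are not independent of each other, and no test was run on them.

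Lower in every later library were MT-ND3 at 0.307 to 0.448%, MT-CO2 at 6.78 to 7.53%, MT-CO3 at 6.44 to 8.94% and MT-ND4L at 0.640 to 0.824%. The 0 h values were 0.759 and 0.762%, 8.59 and 8.59%, 9.10 and 10.6%, and 0.966 and 0.901%, respectively. Of these, MT-CO3, MT-ND3 and MT-ND4L follow each other along the genome. MT-ND3 was lowest relative to 0 h at 4 h, with a log2 ratio of its share of −1.31, and then stood at −1.26, −1.30, −1.07 and −0.76 at 12, 20, 28 and 42 h. Its share was therefore nearer to that of 0 h in the latest library than in the earliest.

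Higher in every later library were MT-ATP6 at 14.6 to 16.3%, from 10.6 and 11.0% at 0 h, MT-ATP8 at 2.36 to 2.80%, from 2.20 and 2.08%, and MT-ND6 at 1.88 to 2.44%, from 1.74 and 1.87%. For MT-ND6 the gap was small, 1.87% in 0 h replicate 2 against 1.88% at 20 h, and its share did not follow hours (r = −0.0122, exact permutation p = 0.977, adjusted p = 0.977, and rho = 0.378, exact permutation p = 0.405, adjusted p = 0.405; r without 42 h and 28 h was 0.141). By complex, the ATP synthase mRNAs took 12.8 and 13.04% of the mRNA counts at 0 h and 17.4 to 18.7% later, and those of complex IV took 40.3 and 40.0% at 0 h and 35.3 to 38.9% later. The shares of complex I, 42.2 and 41.5% at 0 h against 36.7 to 42.5% later, and of complex III, 4.71 and 5.41% against 4.53 to 6.23%, overlapped between 0 h and later.

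MT-CO3 and MT-ATP6 share a boundary, and their counts moved apart. MT-CO3 had 0.859 and 0.967 counts for each count of MT-ATP6 at 0 h and 0.394 to 0.575 later. MT-ND3 had 0.0609 and 0.0634 counts for each count of MT-ND4 at 0 h and 0.0230 to 0.0436 later, while MT-ATP8 against MT-ATP6, at 0.207 and 0.190 at 0 h and 0.144 to 0.192 later, overlapped.

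The 0 h libraries also differed from the later ones in fragment length. The mean fragment that the deposited counts and FPKM values imply was 281.8 and 280.3 bases at 0 h and 259.2 to 267.0 bases later, and its part in the composition was not tested. Of the shortest mRNA genes, MT-ND4L with 297 bases and MT-ND3 with 346 took a lower share later and MT-ATP8 with 207 a higher one. MT-ATP6 has a nuclear copy, MTATP6P1, identical at 671 of 681 bases (98.5%), which held 26625 to 59930 counts in the time series. With its counts added, MT-ATP6 took 12.4 and 12.6% at 0 h and 16.3 to 18.1% later, and the groups did not overlap either way.

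**Figure D3:**
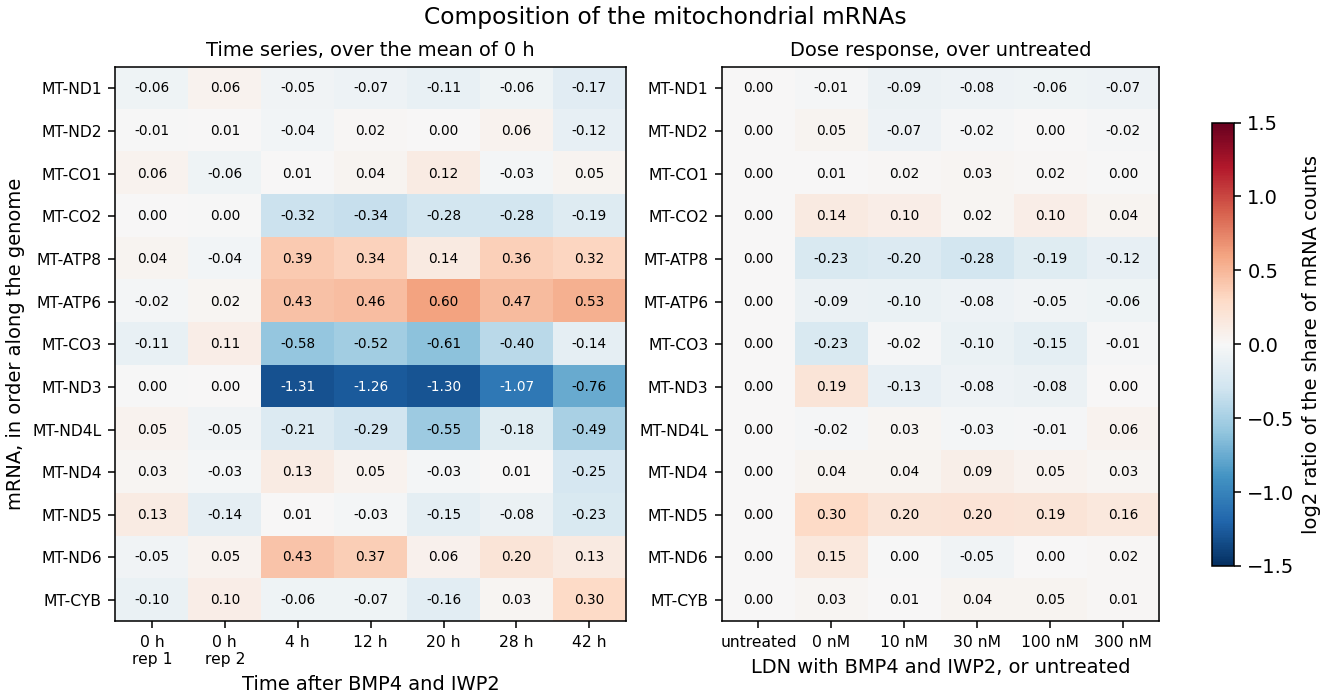
Log2 ratio of each mRNA's share of the mitochondrial mRNA counts to its reference, the mean share of both 0 h libraries for the time series (left) and the share in the untreated library for the dose response (right), with genes in order along the genome and 1 column per library. Blue is lower and red is higher. MT-ND3 stands at −1.31 to −0.76 after 0 h and MT-ATP6 at 0.43 to 0.60, while in the dose response the ratios run from −0.28 to 0.30.

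At 5 h the untreated library was the one that stood apart. Mitochondrial transcripts took 7.89% of its counts, and in the libraries with BMP4 and IWP2 they took 4.22%, 4.35%, 4.34%, 4.33% and 4.49% with 0, 10, 30, 100 and 300 nM LDN. All 5 libraries with BMP4 lay close together and far below the untreated one, the 300 nM library included. With 1 untreated library there is no test, and BMP4, IWP2, RI and the change of medium cannot be told apart in this comparison. The untreated library also had the smallest total, 15600931 counts against 28742690 to 33989998 in the others, and its part was not tested. For scale, the 0 h libraries of the same label were 1.77-fold apart in mRNA total.

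Between 0 nM LDN and untreated cells, 13 of the 15 members were at least 1.5-fold lower and none higher, against 5.13% of all genes lower and 13.9% higher. The mRNA total was 1.97-fold lower, a log2 ratio of −0.98, and the median log2 ratio was −0.93 over the members and 0.10 over all genes. MT-CO1 stood at 18372 CPM in the untreated library and at 9385 to 9953 CPM with BMP4. MT-ND3 was at 397 CPM untreated and at 230.2, 190.0, 195, 194 and 216 CPM with rising LDN, and MT-CO3 at 9395 CPM against 4065, 4843, 4555, 4389 and 5058. All 15 members were lower in each library with BMP4 than in the untreated one, against 25.7% of all genes, and none was higher, against 44.9%.

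The members below 1.5-fold were the rRNAs. MT-RNR2, the large rRNA, stood at 7753 CPM in the untreated library and at 5816, 6060, 6075, 6076 and 5985 CPM with rising LDN. MT-RNR1, the small rRNA, stood at 1300.5 CPM and at 871, 943, 1000.4, 1055 and 949.9 CPM. Together they were 1.35-fold lower at 0 nM LDN than in untreated cells (log2 ratio −0.44), a smaller difference than that of the mRNAs. There were 7.72 mRNA counts for each rRNA count in the untreated library and 5.31, 5.21, 5.13, 5.08 and 5.48 with rising LDN.

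The shares of single mRNAs differed from those of untreated cells by −0.28 to 0.30 on the log2 scale. MT-ND5 took 5.28% of the mRNA counts in untreated cells and 5.90 to 6.50% with BMP4, and MT-ATP8 1.14% against 0.944 to 1.05%. The share of MT-ND3, lower from 4 h on in the time series, was 0.568% in untreated cells and 0.521 to 0.648% with BMP4 at 5 h, so that the groups overlapped. The difference between the experiments was not tested. MT-CO3 took 13.4% against 11.4 to 13.3%. In all, 4 mRNAs lay above the untreated share in every library with BMP4, 4 lay below and 5 overlapped. Some gaps were narrow, as for MT-CYB at 4.74% untreated against 4.76 to 4.89%. Against 1 untreated library such separation is common: by CPM 44.9% of all genes lay above it in every library with BMP4 and 25.7% below. The implied fragments had 273.9 bases in untreated cells and 259.3 to 266.7 with BMP4.

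With LDN the members moved by little. By the line fitted over the order of dose, 3 of the 15 members rose and none fell, against 10.4% of 14907 genes that rose and 10.9% that fell (edgeR quasi-likelihood test, Benjamini-Hochberg adjustment). MT-ATP6 was at 3666, 3744.5, 3781, 3841 and 4010.2 CPM from 0 to 300 nM, each dose above the one before, and its line rose by 0.13 on the log2 scale over the 4 steps (edgeR adjusted p = 0.00527). The line of MT-ATP8 rose by 0.18 (edgeR adjusted p = 0.0298) and that of MT-CYB by 0.093 (edgeR adjusted p = 0.0496), though neither mRNA rose at every step. Of the 15 members, 8 had an unadjusted p under 0.05 in this edgeR test, which was not counted over all genes.

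The number of members called varied with single libraries, while their median slope, 0.020 log2 per dose step, stayed between 0.018 and 0.023. Without 300 nM, MT-RNR1 alone passed, and without 10 nM 5 members did. Between 300 nM and 0 nM no member reached a 1.5-fold difference in either direction, against 2.69% of all genes higher and 5.76% lower, and the log2 ratio of the mRNA total was 0.096. Over the same doses the summed CPM of the amnion-like genes ran from 254 at 0 nM to 172, 103, 46.8 and 25.6, against 21.1 in untreated cells. At the highest dose the summed CPM of these markers lay close to that of untreated cells, while the mitochondrial share was 4.49% against 7.89%. Both comparisons rest on 1 untreated library, and a cause was not tested.

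The rRNAs separated the preparations most. In the polyA-selected libraries they took 0.669 to 0.905% of all counts. In the rRNA-depleted ones they took at most 0.00151%, and MT-RNR2 had 419 and 21 counts in replicates 1 and 2 of 0 h and 55, 11, 229, 7 and 6 counts in the libraries of 4, 12, 20, 28 and 42 h, with 156, 7, 47, 7, 187, 2 and 3 counts of MT-RNR1 in the same order. These counts did not follow the mRNAs: 20 h had the most rRNA counts after 0 h replicate 1 and the lowest mRNA share after 42 h.

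Neither rRNA passed the test against hours (MT-RNR2, edgeR adjusted p = 0.170, and MT-RNR1, edgeR adjusted p = 0.366). The rRNA share gave r = −0.415 (exact permutation p = 0.367, adjusted p = 0.458) and rho = −0.703 (exact permutation p = 0.0897, adjusted p = 0.149), with r = −0.136 without 42 h and 28 h. The log2 ratio of mRNA to rRNA gave r = 0.408 (exact permutation p = 0.349, adjusted p = 0.458) and rho = 0.541 (exact permutation p = 0.218, adjusted p = 0.273), with r = −0.258 without these libraries. The mRNA counts for each rRNA count ran from 3974 at 20 h to 203845 at 28 h. What the depletion removed and what the cells held cannot be told apart in these counts.

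**Figure D4:**
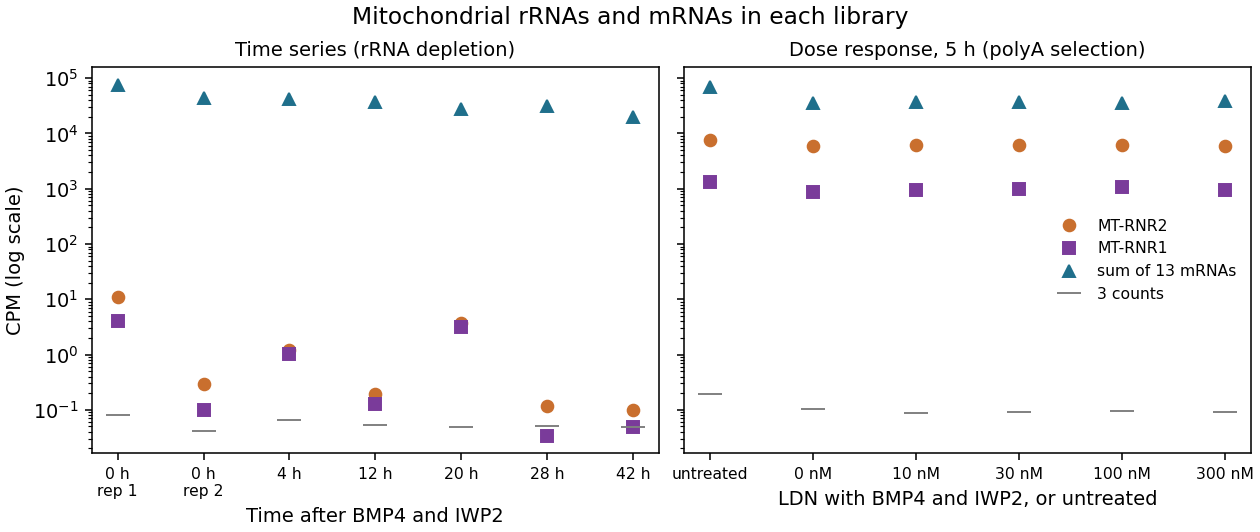
CPM on a log scale of MT-RNR2 (circles), MT-RNR1 (squares) and the sum of the 13 mRNAs (triangles) in each library, with grey bars at the CPM of 3 counts. The mRNA sums lie within about the same range in both preparations, while MT-RNR2 stands at 5816 to 7753 CPM after polyA selection and near the grey bars in 4 of the 7 rRNA-depleted libraries.

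The 22 tRNAs had no counts in any of the 13 libraries, and their FPKM values were 0 too. With 0 counts, up to 0.079 CPM in the time series and 0.192 CPM in the dose response are allowed for each. Their genes are 59 to 75 bases long, and of all 1311 features of at most 75 bases 1 had a count in each experiment (0.0763%). Of longer ones of up to 150 bases 0.598% had counts in the time series and 0.374% in the dose response, against 71.1% and 58.6% of those above 150 bases. The tRNA levels could not be read from these tables.

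Other differences between the preparations concerned the mRNAs. MT-ATP8 took 2.08 to 2.80% of the mRNA counts after rRNA depletion and 0.944 to 1.14% after polyA selection, and MT-ND6 1.74 to 2.44% against 1.26 to 1.45%. MT-CO3 ran the other way, at 6.44 to 10.6% against 11.4 to 13.4%, and so did MT-CO1, at 20.8 to 23.6% against 26.2 to 26.8%. The ranges did not overlap for these 4, nor for MT-ND1, MT-ND2 and MT-ND4L. Kit, library type and experiment differed together and cannot be told apart. How reads were assigned to strands is not given in the sources used here, so reads of MT-ND6 and of the RNA opposite to it may not have been separated.

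Per length, the level of an mRNA at 0 h ranged from 2575 ± 1315 FPKM for MT-ND5 to 15890 ± 5940 for MT-ATP6 (SD, n = 2), leaving out MT-ATP8. FPKM divides the count by the effective length, the part of a transcript at which a fragment can start, and by depth. MT-ATP8 was listed at 104998 ± 42146 FPKM, but its effective length was 11.6 to 14.1 of its 207 bases, which makes that value unsafe. After MT-ATP6 came MT-CO2 at 12624 ± 4998, MT-CO3 at 11375 ± 3355, MT-CO1 at 10356 ± 4633, MT-ND4L at 9810 ± 4181, MT-ND1 at 8474 ± 2890, MT-ND2 at 7724 ± 2993, MT-ND4 at 6661 ± 2790, MT-ND3 at 4926 ± 1895, MT-ND6 at 4262 ± 1482 and MT-CYB at 3429 ± 1039. Neighbours in this order lay within their SDs of each other, which hold the difference in mitochondrial share common to all mRNAs between the libraries. Within each of the 2 libraries taken alone the order was the same.

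Nuclear genes for the upkeep of mitochondrial RNA moved in both directions. Of 17 genes for transcription and maintenance of mitochondrial DNA, 8 fell with hours and 1 rose (edgeR, Benjamini-Hochberg adjustment), where 17.5% of all genes fell and 19.2% rose, with a median slope of −0.015 log2 per hour against −0.00011 over all genes. Those with the steepest fall were TWNK, the mitochondrial helicase (−0.031 log2 per hour), SSBP1, which binds single-stranded DNA (−0.025), and RNASEH1, which removes RNA from hybrids with DNA (−0.024). POLG, the catalytic subunit of the mitochondrial DNA polymerase, rose (0.016). The helicase also rose with LDN (0.076 log2 per dose step), as did TOP1MT, a topoisomerase (0.065), and POLRMT, the mitochondrial RNA polymerase (0.050), while the nuclease MGME1 fell (−0.046), where 10.4% of all genes rose and 10.9% fell.

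Of 32 genes for processing, modification and stability of mitochondrial RNA, 10 fell with hours and 3 rose, with a median slope of −0.0051, beside the same shares of all genes. SLIRP, a partner of LRPPRC in keeping mitochondrial mRNAs stable, fell by 0.030 log2 per hour, and FASTKD2 (−0.026) and PTCD2 (−0.024), which bind mitochondrial RNA, fell too. FASTK (0.028), REXO2, an exonuclease (0.020), and NSUN4, an rRNA methyltransferase (0.017), rose. With LDN 3 rose, MRM3 (0.071 log2 per dose step), GTPBP3 (0.061) and ELAC2, which cuts the 3′ ends of tRNAs (0.039), and PTCD2 fell (−0.090), where 10.4% of all genes rose and 10.9% fell.

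Of 9 nuclear regulators, 2 rose and 3 fell with hours, where 19.2% of all genes rose and 17.5% fell. PPARGC1A, a coactivator of genes for mitochondria, rose by 0.090 log2 per hour and its binding partner ESRRA by 0.026, while the related PPARGC1B (−0.077) and PPRC1 (−0.023) and the transcription factor YY1 (−0.014) fell. With LDN 4 rose, MYC (0.204 log2 per dose step), PPARGC1B (0.093), ESRRA (0.091) and YY1 (0.060), and none fell, where 10.4% of all genes rose and 10.9% fell. Between 0 h and later MYC fell (−1.16 log2, edgeR adjusted p = 0.0378), and no other gene of the 3 lists passed.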

How the data were processed

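Bulk RNA-seq tables of 13 libraries were used, 7 of a time series and 6 of a dose response. Per the submitters' processing notes, Cutadapt 2.3 trimmed the reads, STAR 2.7.8a aligned them to GRCh38 and RSEM 1.3.3 estimated the counts. The ENSEMBL release is not given in the sources used here. The deposited tables hold RSEM expected counts per gene, which are whole numbers without scaling. The FPKM values the authors normalized for effective length and depth served for levels per length, for the implied fragment length and for an alternative. RSEM shares out reads that match several places, so counts of overlapping genes and of nuclear copies are estimates.

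Shares and CPM were computed here on the total of all features. All genes averaging at least 1 CPM entered edgeR 4.0.16 (TMM factors, quasi-likelihood test, Benjamini-Hochberg adjustment over all genes tested, threshold 0.05), against hours over 7 libraries, later times against 0 h, and the order of the LDN dose over 5 libraries. With 1 library per condition, the scatter about the line was the error. Of the 37 members, 15 passed the filter and the 22 tRNAs did not. Comparisons of single libraries have no test and use a 1.5-fold difference after adding 0.5 CPM. Relations to hours used exact permutation tests over 5040 pairings, two-sided. Intervals are Wilson intervals at 95%. The fits were also run on simulated counts with known changes, drawn without a shift of the members between libraries. That run checks the code only and does not bear on the calls made here. Every member may be named, and of the gene lists at most the 3 called genes with the largest slope in each direction. Named beyond this rule were YY1 with LDN dose, and RN7SL1, RN7SL2 and RMRP of the structural RNAs. The members and lists were chosen with earlier results of these data known. Alternatives covered scaling, filter, tool, time and dose scale, pseudocount and each library left out, with DESeq2 1.42.0 as the other tool. Software was R 4.3.3 and, under Python 3.11.15, scipy 1.17.1, pandas 2.3.3, matplotlib 3.10.9 and numpy 2.4.6.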

Additional observations from a re-analysis of the deposited data

Results flagged for a closer look

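The share of the mitochondrial mRNA counts taken by 3 mRNAs differed from its reference in opposite directions in the experiments. MT-CO2 took 8.59% on average at 0 h and less in every later library, but 6.23% in untreated cells and more in every library with BMP4 at 5 h. MT-ATP6 took 10.8% on average at 0 h and more in every later library, but 11.0% in untreated cells and less in every library with BMP4 at 5 h. MT-ATP8 took 2.14% on average at 0 h and 1.14% in untreated cells, with the same directions as MT-ATP6. On the log2 scale the differences at 5 h were 0.02 to 0.14 for MT-CO2, −0.10 to −0.05 for MT-ATP6 and −0.28 to −0.12 for MT-ATP8. In the time series they were −0.34 to −0.19, 0.43 to 0.60 and 0.14 to 0.39, respectively. The direction at 5 h rests on 1 untreated library, and for MT-CO2 and MT-ATP6 the differences there were small. The difference between the experiments was not tested. They differed in kit, library type and times, and these cannot be told apart.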

How the results depend on the processing

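No paired analysis was possible because only the 0 h group had 2 replicates. Under every alternative run, no member rose with hours and none fell with LDN dose. The relation of the member share to hours gave r from −0.953 to −0.707 with each library left out in turn, and that of the mRNA share likewise −0.953 to −0.707. Both passed the threshold without 0 h replicate 1 (adjusted p = 0.0104, exact permutation test). For the MT-ND6 share r ran from −0.303 to 0.283 with each library left out, and it turned positive without 4 h (0.283), 12 h (0.037), 20 h (0.027) or 42 h (0.112), never past the threshold. The number of members that fell with hours was 0 to 10 with each library left out (0 without 42 h) and 10 to 13 otherwise. Over all genes 1387 to 3166 fell with each library left out (1387 without 42 h) and 1366 to 4448 otherwise. The number that fell after 0 h was 2 in edgeR with TMM factors, 1 with library totals, 1 with the totals of nuclear genes, 8 with the DESeq2 Wald test and 0 to 3 with each library left out. Over all genes that comparison called 132 higher and 22 lower, and 1234 and 467 in the DESeq2 Wald test. The number that rose with LDN was 3, then 7 with no filter on low counts and 1 to 5 with each library left out. Over all genes 1556 of 14907 rose, then 1757 of 31851 with no filter and 874 to 1423 with each library left out. The log2 ratio of the mRNA total of 0 nM LDN over untreated cells was −0.98, and −1.03 over nuclear counts, −1.06 with TMM factors, −1.07 with DESeq2 size factors and −0.97 from FPKM. That of 300 nM over 0 nM was 0.096, and 0.100, 0.11, 0.12 and 0.047 in the same order. With each library left out in turn, single members that had not passed the threshold changed sign: MT-ATP6 after 0 h, from −0.75 to 0.046 on the log2 scale, and 5 slopes with LDN (log2 per step), MT-CO2 from −0.0046 (without 300 nM) to 0.0096, MT-ND3 from −0.065 to 0.057 (without 0 nM, edgeR adjusted p = 0.0175), MT-ND5 from −0.020 to 0.0060, MT-ND6 from −0.037 to 0.029 and MT-RNR2 from −0.0045 to 0.025. The cause was not tested. Adding MTATP6P1 to MT-ATP6 and the counts of members past 1.5-fold against each 0 h library alone were chosen after the data were seen. The rRNAs of the time series were read at few counts, 9 to 575 per library, and the mRNAs were not. The largest library total of the series, in 0 h replicate 2, came with 28 rRNA counts. The smallest, in replicate 1, came with 575.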
